A study of Mus musculus with 4 samples.

Results

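The genes described here are 38 genes of glycolysis, the pentose phosphate pathway and the cellular response to low oxygen, listed by name and by no threshold on their values, among 18194 genes with a probe set of their own on the array. A value was found for 35 of the 38, and 32 of these were bright enough to be tested. Gpi1, Eno1 and G6pdx had no probe set assigned to that gene alone and were not analysed here. Aldoc, Pfkfb4 and Pdk2 had dim probe sets and were not tested. The measurements come from CD4 T cells sorted from the lamina propria of the mouse large intestine. All cells came from mice of a mixed 129/B6 strain that carried GFP knocked into the Gpr15 locus on 1 of the 2 alleles, so that GFP marks cells expressing the receptor GPR15, and the GFP-negative cells carry the same allele. Total RNA from GFP-positive (GPR15positive) and GFP-negative (GPR15negative) cells was hybridised to Affymetrix arrays, 2 arrays per group, numbered replicate 1 and 2. Neither the age of the mice, nor a treatment, nor how many mice were pooled per sample is given. The p-values below therefore reflect the spread among these 4 samples alone, and part of that spread may be technical. The 2 samples of each group also differed in genes of the sex chromosomes (below), so the spread includes a difference of sex. The series text once writes the GPR15-negative cells as CD4-negative, but their sample labels say CD4+.

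Glycolysis splits glucose into pyruvate in a chain of enzymatic steps, several of which have tissue-specific isozymes, and lactate dehydrogenase converts the pyruvate to lactate. The pentose phosphate pathway branches off after the first step and makes NADPH and ribose for synthesis. When oxygen is low, prolyl hydroxylases of the Egln family no longer mark HIF-1α, the product of Hif1a, for destruction, and HIF-1 binds short DNA elements containing ACGTG or GCGTG and raises many glycolytic genes. The colon is a tissue of low oxygen, and activated and regulatory T cells are known to differ in how strongly they rely on glycolysis.

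Signals are the deposited linear probe set intensities, each array scaled to a common level. Differences are log2(signal + 16) in GFP-positive minus GFP-negative cells, with the 95% interval and the adjusted p of limma's moderated test over all 12253 tested genes. The median signal of an array was 37.0 and 36.1 for GFP-negative and 46.0 and 45.2 for GFP-positive samples, and the median difference over all tested genes was 0.075. Both samples numbered 1 differed from both numbered 2 in the genes of the sex chromosomes: the X-linked Xist was at 4172 and 4313 in the former and 55.1 and 112 in the latter, and the Y-linked Eif2s3y was at 18.9 and 5.08 against 2329 and 2177. Differences within each replicate number are therefore given beside the pooled ones. The defining regulatory T cell factor Foxp3 was 76.6 and 72.2 in GFP-negative and 441 and 472 in GFP-positive cells. The summed signal of 6 CD4 T cell identity genes was 14484 and 14018 in GFP-negative and 13290 and 12022 in GFP-positive samples. It was thus lower in both GFP-positive samples. Of these 6 genes, 3 (50%, background 18.6%) were lower in GFP-positive cells without overlap.

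Among the 32 tested members, the genes that stood highest in GFP-positive cells were the enolase isozyme Eno2, the oxygen sensor Egln3 and the mitophagy receptor Bnip3, each more than 2-fold higher with no overlap between the groups. The regulators of glycolytic flux ran the other way: Pfkfb3, Pdk1 and Pdk3 were each lower in both GFP-positive samples. Hif1a itself and most of the core enzymes gave smaller differences. The tested pentose phosphate genes overlapped between the groups on the probe set kept for each. None of the 32 members passed an adjusted p of 0.05 in limma, where 4 of 12253 genes did (0.0326%). Eno2 and Egln3 did pass with a larger pseudocount of 64 (adjusted p = 0.00712 and 0.0284) and with a trended robust variance (0.00247 and 0.0153), settings under which 174 and 241 genes of the whole array passed. With limma's p left unadjusted and a threshold of 0.05, 5 members (15.6%) stood higher in GFP-positive cells, against 10.2% of all tested genes, and 2 (6.25%) stood lower, against 4.37%. The difference was above 0 for 21 members (65.6%, background 57.7%). The groups did not overlap, with GFP-positive cells higher, for 12 members (37.5%, background 28.7%), and with GFP-positive cells lower for 3 (9.38%, background 18.6%), while 17 overlapped. Differences past 2-fold without overlap were upward for 3 members (9.38%, background 3.4%) and downward for 0 (background 1.31%). All these shares are of few genes, and the 2-fold one rests on Eno2, Egln3 and Bnip3.

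The 5 upward members by unadjusted p were 3 in number when GFP-negative replicate 1, GFP-positive replicate 1 or GFP-positive replicate 2 was left out, and 8 without GFP-negative replicate 2. The 2 downward members became 0 without GFP-negative replicate 1 or GFP-positive replicate 2, and 1 without GFP-positive replicate 1. The 3 members past 2-fold became 5 without GFP-negative replicate 2, 2 without GFP-negative replicate 1 or GFP-positive replicate 1, and 1 under median scaling. The median difference of the 32 members was 0.21 with the arrays as deposited and -0.10 when the arrays were scaled to a common median, a scaling that also moved the median of all tested genes from 0.075 to -0.20. It was 0.092 without GFP-negative replicate 1 and 0.32 without GFP-negative replicate 2.

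**Figure D1:**
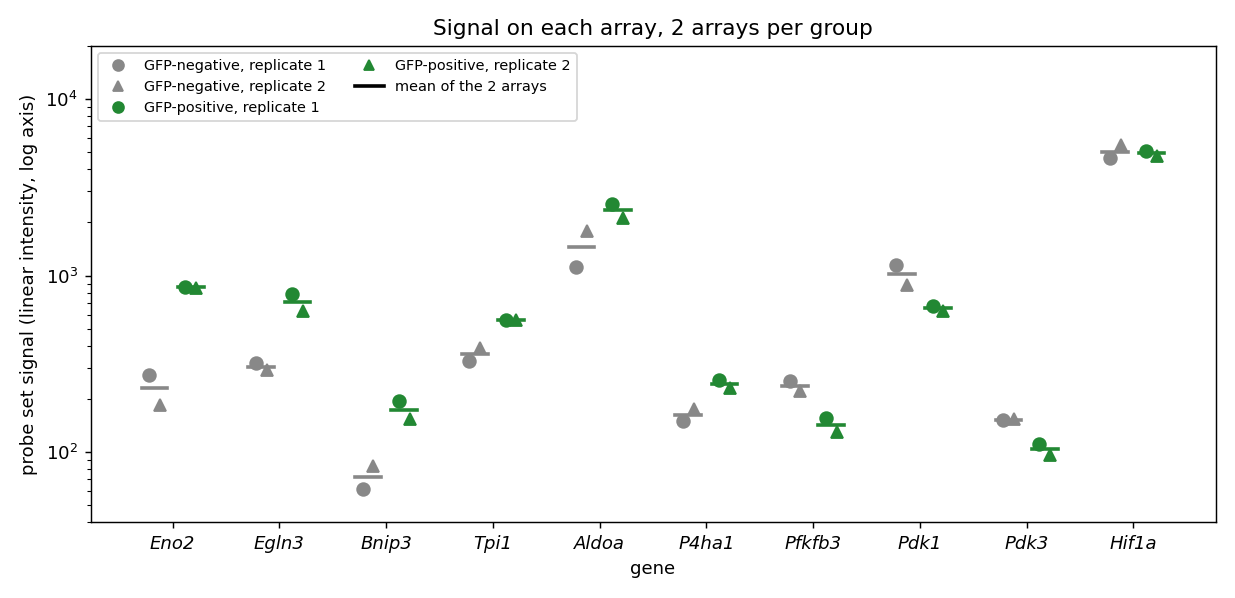
Probe set signal (linear intensity on a log axis) of 10 members on the 4 arrays, grey for GFP-negative and green for GFP-positive samples, circles for replicate 1, triangles for replicate 2 and a bar for the mean of each group. The green points of Eno2, Egln3 and Bnip3 lie above the grey ones, those of Pfkfb3, Pdk1 and Pdk3 lie below, and those of Hif1a overlap with them.

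The promoter windows of the 3 genes with the largest upward differences and of Pfkfb3, the gene with the largest downward difference, are shown because HIF-1 elements are searched for by their letters. Each is the 250 bases before an annotated start in RefSeq's mouse assembly GRCm38.p6, written 5′ to 3′ on the strand of the gene, with capitals marking ACGTG or GCGTG on either strand (CACGT or CACGC when read from the other strand).
Eno2, chr6:124769674-124769923, minus strand: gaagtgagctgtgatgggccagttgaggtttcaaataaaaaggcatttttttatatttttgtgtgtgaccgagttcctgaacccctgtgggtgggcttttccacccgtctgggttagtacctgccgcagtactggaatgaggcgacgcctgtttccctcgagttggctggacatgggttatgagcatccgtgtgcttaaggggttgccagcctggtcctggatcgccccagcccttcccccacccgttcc
Egln3, chr12:54203875-54204124, minus strand: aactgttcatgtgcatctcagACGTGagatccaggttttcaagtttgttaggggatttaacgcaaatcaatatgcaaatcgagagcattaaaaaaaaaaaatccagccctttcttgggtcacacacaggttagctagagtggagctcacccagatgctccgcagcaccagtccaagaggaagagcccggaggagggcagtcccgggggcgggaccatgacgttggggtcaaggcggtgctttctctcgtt
Bnip3, chr7:138909507-138909756, minus strand: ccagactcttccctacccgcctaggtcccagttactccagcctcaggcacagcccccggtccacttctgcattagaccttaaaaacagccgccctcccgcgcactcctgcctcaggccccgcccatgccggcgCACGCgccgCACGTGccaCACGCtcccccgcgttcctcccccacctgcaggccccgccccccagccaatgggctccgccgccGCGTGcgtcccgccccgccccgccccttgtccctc
Pfkfb3, start at the lower coordinate, chr2:11502091-11502340, minus strand: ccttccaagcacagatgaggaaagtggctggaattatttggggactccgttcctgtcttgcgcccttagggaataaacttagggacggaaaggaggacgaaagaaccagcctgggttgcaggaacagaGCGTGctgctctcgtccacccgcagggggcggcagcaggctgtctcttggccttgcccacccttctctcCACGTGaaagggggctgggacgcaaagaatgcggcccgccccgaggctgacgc
Pfkfb3, start at the higher coordinate, chr2:11553930-11554179, minus strand: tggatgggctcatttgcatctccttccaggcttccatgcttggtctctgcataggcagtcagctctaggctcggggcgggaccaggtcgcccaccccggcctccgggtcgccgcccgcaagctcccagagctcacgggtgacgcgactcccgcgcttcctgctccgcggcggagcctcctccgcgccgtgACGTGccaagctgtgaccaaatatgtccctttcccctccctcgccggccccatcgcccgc
Eno2 had no match in this window although its difference was the largest. Egln3 had 1 match, Bnip3 had 5, and the Pfkfb3 windows had 3 and 1. The palindrome CACGTG, which Bnip3 and the first Pfkfb3 window each hold once, contains ACGTG on both strands and counts as 2 overlapping matches. At least 1 match was present in 44 of 56 windows of the 38 members (78.6%), in 53.7% of the 12545 windows of tested genes and in 38.6% of all 32851 windows. At least 2 matches were present in 39.3% of the member windows, 25.9% of those of tested genes and 16.7% of all. By role, 6 of 8 windows of the flux regulators (75%) held a match. So did 5 of 6 of the pentose phosphate genes (83.3%) and 8 of 10 of the hypoxia targets (80%). ACGTG itself was in 4 of 8 (50%), 0 of 6 and 7 of 10 (70%) of these windows, against 21.2% for tested genes. At least 2 matches were present in 37.5%, 0% and 60% of them, in the same order. A match is a run of letters and not a shown binding site.

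Of the oxygen-sensing genes, Hif1a was among the brightest on the array. Its signal was 4628 and 5456 in the GFP-negative samples and 5077 and 4776 in the GFP-positive samples, a difference of -0.029 (95% interval -0.57 to 0.51, adjusted p = 0.968). The groups overlapped, and 2 of its 3 other probe sets gave 0.12 and 0.012, while the third gave -0.36. HIF-1α is controlled mainly through protein stability, which an array does not measure.

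Egln3, a prolyl hydroxylase that HIF-1 itself induces, was 318 and 293 in GFP-negative and 788 and 631 in GFP-positive samples, means of 305 ± 17.7 and 709 ± 111 (SD, n = 2). Both GFP-positive samples lay above both GFP-negative ones. The difference was 1.17 (0.61 to 1.73, adjusted p = 0.169), and the samples numbered 1 and those numbered 2 gave 1.27 and 1.07. A second Egln3 probe set read 171 and 245 against 526 and 456, a difference of 1.20. Egln1, the main oxygen sensor of the family in most cells, was 481 and 399 against 543 and 421, with overlapping groups and a difference of 0.12 (-0.48 to 0.72, adjusted p = 0.855).

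The balance of Egln3 to Egln1, the difference of their log2 values on each array, was 1.05 higher in GFP-positive samples (1.10 within replicate 1 and 0.99 within replicate 2) with no overlap. Its exact two-sided permutation p was 0.333, the smallest that 2 against 2 samples can give, and 1 after Benjamini-Hochberg adjustment over the 6 isozyme pairs in which both genes were tested. Egln2, the family member from the list of further hypoxia genes, was 119 and 171 against 259 and 232, a difference of 0.72 (adjusted p = 0.304), again with the GFP-positive samples above the others.

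Among the 7 genes known as hypoxia targets, the median difference was 0.45, and 0.14 under median scaling, and 5 (71.4%, background 28.7%) showed no overlap, all higher in GFP-positive cells. Bnip3, which marks mitochondria for degradation, was 61.5 and 83.7 in GFP-negative and 194 and 154 in GFP-positive samples, means of 72.6 ± 15.7 and 174 ± 28.0 (SD, n = 2). The groups were apart by a wide margin on this dim to moderate probe set. The difference was 1.10 (0.49 to 1.71, adjusted p = 0.205), and the within-replicate differences were 1.44 and 0.77.

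P4ha1, a subunit of collagen prolyl 4-hydroxylase, was 150 and 175 against 256 and 231, a difference of 0.54 (0.0031 to 1.07, adjusted p = 0.341). Both GFP-positive samples were higher, but its second probe set overlapped, at 80.6 and 64.9 against 110 and 70.9, and gave 0.24. Mxi1, a MAX-binding antagonist of MYC, was 2761 and 2768 in GFP-negative and 4074 and 3532 in GFP-positive samples, a difference of 0.45 (-0.071 to 0.98, adjusted p = 0.395). The GFP-negative samples were nearly equal, and the GFP-positive samples both lay above them. Ankrd37, an ankyrin repeat protein induced by HIF-1, differed by 0.40 (adjusted p = 0.435) and Vegfa, the vascular growth factor, by 0.52 (adjusted p = 0.454), both without overlap. A second, dim Vegfa probe set went the other way, at 7.35 and 10.6 against 3.15 and 3.31, a difference of -0.37.

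Ddit4, an inhibitor of mTORC1 that hypoxia and glucocorticoids induce, was the brightest of the hypoxia targets. Its signal was 3628 and 3516 in GFP-negative and 3600 and 3355 in GFP-positive samples, a difference of -0.039 (-0.55 to 0.47, adjusted p = 0.951). The groups overlapped and all 4 samples lay close together. Higd1a, a mitochondrial protein, also overlapped, with a difference of 0.19 (adjusted p = 0.791). Among the hypoxia targets, Bnip3 and Ddit4 thus mark the ends of the range, from more than 2-fold higher to a difference near 0.

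**Figure D2:**
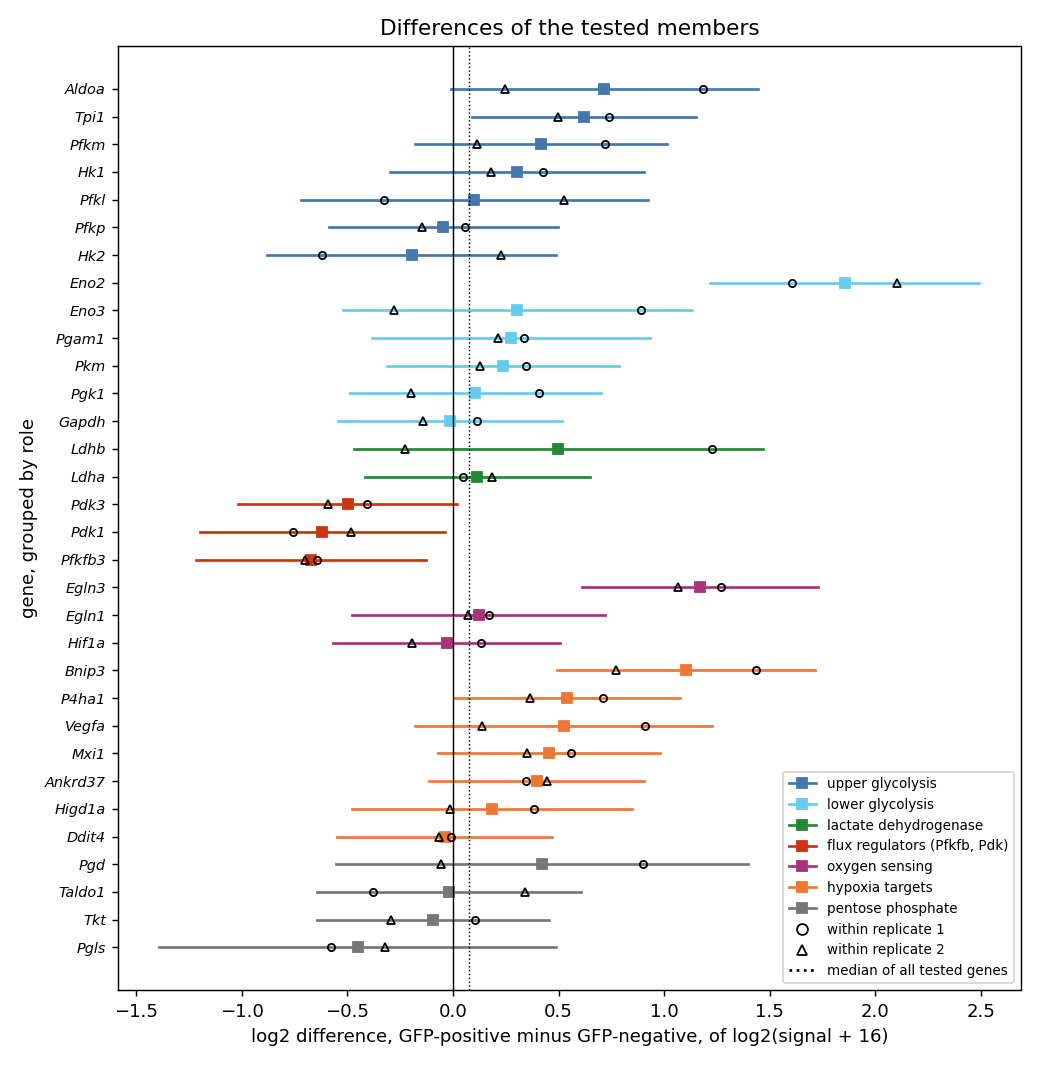
Log2 difference of each of the 32 tested members, GFP-positive minus GFP-negative, as a square with its 95% interval from limma, coloured by role, with open circles and triangles for the differences within replicate 1 and within replicate 2. The dotted line is the median of all tested genes (0.075), and Eno2 (1.85), Egln3 (1.17) and Bnip3 (1.10) lie farthest above 0 and Pfkfb3 (-0.67) farthest below.

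In the upper part of glycolysis, where glucose is phosphorylated and split, the 7 tested genes had a median difference of 0.30, and 4 (57.1%, background 28.7%) had no overlap, all higher in GFP-positive cells. This median was 0.51 without GFP-negative replicate 2 and 0.019 under median scaling. Aldoa, the main aldolase of lymphocytes and the brightest tested gene of these steps, was 1116 and 1781 in GFP-negative and 2558 and 2118 in GFP-positive samples. Both GFP-positive samples were higher, but the GFP-negative samples were far apart. The difference was 0.72 (-0.011 to 1.44, adjusted p = 0.345), made of within-replicate differences of 1.19 and 0.25, and it was 0.38 without GFP-negative replicate 1. Its 4 other probe sets gave 0.59 to 0.78.

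Tpi1, which interconverts the triose phosphates, was 329 and 389 in GFP-negative and 561 and 556 in GFP-positive samples. The GFP-positive samples were nearly equal and both higher. The difference was 0.62 (0.089 to 1.15, adjusted p = 0.304), the within-replicate differences were 0.74 and 0.50, and its other probe sets gave 0.58 and 0.76. Hk1, the widely expressed hexokinase, differed by 0.30 (adjusted p = 0.612) and the phosphofructokinase isozyme Pfkm by 0.42 (adjusted p = 0.484), both without overlap.

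Hk2, the inducible hexokinase, was at 889 and 594 in GFP-negative and 574 and 698 in GFP-positive samples. The groups overlapped, with a difference of -0.20 (-0.88 to 0.49, adjusted p = 0.787) whose within-replicate values of -0.62 and 0.23 had opposite signs. The balance of Hk2 to Hk1 was -0.50, and -1.04 and 0.047 in samples numbered 1 and 2 (exact two-sided permutation p = 0.667). The phosphofructokinases Pfkl and Pfkp overlapped between the groups on the probe set kept for each, with differences of 0.10 and -0.046. The other Pfkl probe sets gave 0.53 and 0.57, both higher in GFP-positive cells without overlap. The balance of Pfkp to Pfkl was -0.15 and of Pfkm to Pfkl 0.32 (exact two-sided permutation p = 1 for both). With the mean of all probe sets these balances were -0.47 and 0.018. Aldoc, the brain aldolase isozyme, was dim, at 18.6 and 20.1 against 59.7 and 11.9.

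In the lower part of glycolysis, which yields ATP and pyruvate, Eno2 had the largest difference. This enolase isozyme, also called neuron-specific enolase, is known to be induced by hypoxia. Its signal was 274 and 184 in GFP-negative and 866 and 845 in GFP-positive samples, means of 229 ± 63.8 and 856 ± 15.3 (SD, n = 2), or 3.73-fold. The GFP-positive samples were almost equal and far above both GFP-negative ones. The difference was 1.85 (1.22 to 2.49, adjusted p = 0.131), the within-replicate differences were 1.60 and 2.10, and Eno2 ranked 42 among the 12253 genes by p.

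Pgk1, the phosphoglycerate kinase and a known HIF-1 target, was the brightest of these steps. Its signal was 2858 and 3516 in GFP-negative and 3799 and 3066 in GFP-positive samples, with overlapping groups and a difference of 0.11 (-0.49 to 0.70, adjusted p = 0.877). Its other probe sets gave 0.33 and 0.42, both higher in GFP-positive cells without overlap. They read 1717 and 2423 against 2487 and 2654, and 2186 and 2802 against 3393 and 3260. Gapdh, measured on the array's own control probe set for the 3′ end of the transcript, was 3174 and 3255 against 3433 and 2950, a difference of -0.014 (-0.54 to 0.51, adjusted p = 0.984).

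The remaining genes of the lower part gave small positive differences, 0.28 for Pgam1 (phosphoglycerate mutase), 0.30 for Eno3 (the muscle enolase) and 0.24 for Pkm (pyruvate kinase), with adjusted p from 0.672 to 0.723. Pkm alone of these had no overlap, at 707 and 871 against 904 and 952. The Eno3 difference changed sign between the replicate numbers, from 0.89 to -0.28. Over all 15 tested glycolytic enzymes the median difference was 0.28, and 6 (40%, background 28.7%) had no overlap, all higher in GFP-positive cells. The median was 0.095 without GFP-negative replicate 1, near that of all genes, and -0.041 under median scaling.

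Ldha, the lactate dehydrogenase subunit that favours lactate formation, was 1590 and 1684 in GFP-negative and 1642 and 1918 in GFP-positive samples. The groups overlapped, with a difference of 0.12 (-0.42 to 0.65, adjusted p = 0.846). Ldhb, the heart-type subunit, was dimmer, at 42.4 and 106 against 121 and 88.4, a difference of 0.50 (adjusted p = 0.603) with within-replicate values of 1.22 and -0.23. The balance of Ldhb to Ldha was 0.38 (exact two-sided permutation p = 0.667).

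Of the 7 roles, the regulators that set the flux into and out of glycolysis were the only one in which all tested members were lower in GFP-positive cells without overlap, 3 of 3 (background 18.6%), with a median of -0.62. Pfkfb3, which makes the fructose 2,6-bisphosphate that activates phosphofructokinase, was 251 and 221 in GFP-negative and 155 and 130 in GFP-positive samples. Both GFP-positive samples lay below both others. The difference was -0.67 (-1.22 to -0.13, adjusted p = 0.282), and the within-replicate values were -0.64 and -0.70. A second, dim Pfkfb3 probe set went the other way, at 12.3 and 18.4 against 49.4 and 31.7, a difference of 0.84, and the mean of both probe sets gave 0.085.

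Pdk1, a kinase that keeps pyruvate out of the mitochondrion by inhibiting pyruvate dehydrogenase, and a known HIF-1 target, was 1153 and 883 in GFP-negative and 676 and 628 in GFP-positive samples. The groups did not overlap. The difference was -0.62 (-1.20 to -0.040, adjusted p = 0.325), the within-replicate values were -0.76 and -0.48, and its 3 other probe sets gave -0.72, -0.25 and -0.79. Pdk3, another kinase of this family, was 151 and 154 against 110 and 96.7, a difference of -0.50 (-1.02 to 0.021, adjusted p = 0.356), again without overlap.

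The balance of Pdk3 to Pdk1 was 0.12 (exact two-sided permutation p = 1). Pdp1, the phosphatase that opposes these kinases, was 104 and 182 in GFP-negative and 248 and 292 in GFP-positive samples, a difference of 0.89 (adjusted p = 0.296) with no overlap. Pdk4, a kinase of the same family from the list of further glycolysis genes, was 4.45 and 63.4 in GFP-negative and 78.9 and 52.4 in GFP-positive samples, a difference of 1.0 (-0.55 to 2.55, adjusted p = 0.521) with overlapping groups. Pdp2, a second phosphatase, differed by 0.30 (adjusted p = 0.591). The Pdk4 difference changed sign between the replicate numbers, from 2.22 to -0.22, and rested on the low signal of GFP-negative replicate 1. Pdk1 and Pdk3 were lower within both replicate numbers. Pfkfb4 and Pdk2 were dim, the former at 23.5 and 14.5 against 17.7 and 46.6, the latter at 7.10 and 40.1 against 4.71 and 12.9.

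The 4 tested pentose phosphate genes all overlapped between the groups on the probe set kept for each, as did 6448 of all 12253 tested genes. Their median was -0.056, and 0.0028 without GFP-positive replicate 1. Tkt, the transketolase and the brightest of them, was 309 and 379 in GFP-negative and 333 and 306 in GFP-positive samples, a difference of -0.094 (-0.64 to 0.46, adjusted p = 0.884). Taldo1 (transaldolase) differed by -0.018 and Pgls (6-phosphogluconolactonase) by -0.45. Pgd, the NADPH-producing 6-phosphogluconate dehydrogenase, was 163 and 375 against 318 and 361, a difference of 0.42 (-0.55 to 1.40, adjusted p = 0.670) in which 1 low GFP-negative sample stood apart. The other Pgd probe sets gave -0.021, 0.19 and 0.54, the last higher in GFP-positive cells without overlap. The intervals of Pgd and Pgls (-1.39 to 0.49) include 2-fold differences, which these arrays could not tell from 0.

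**Figure D3:**
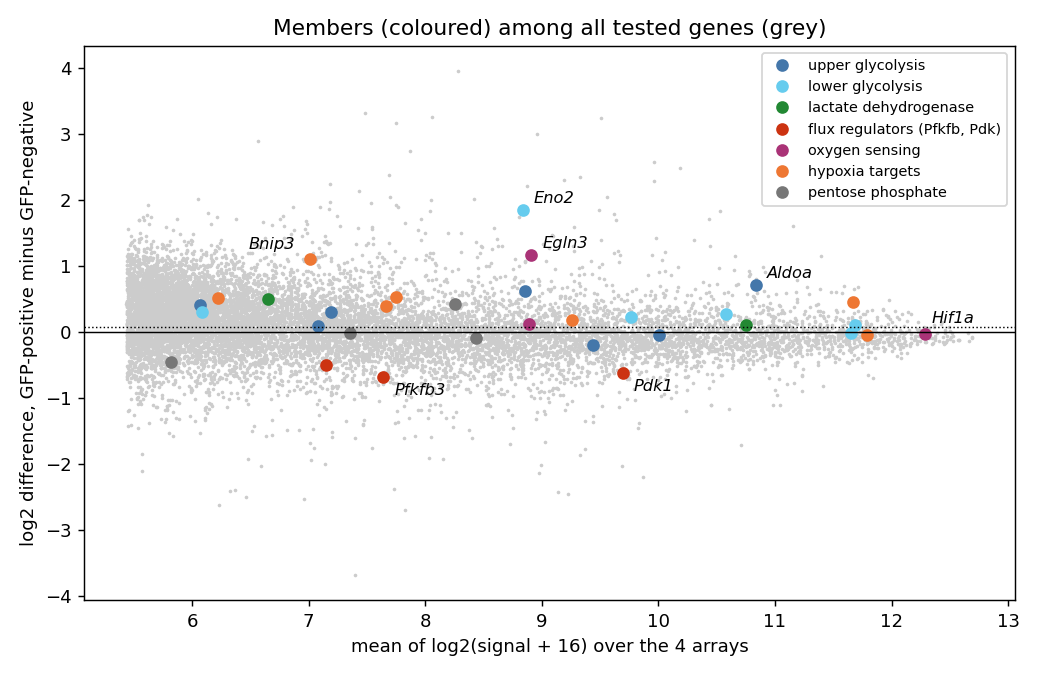
Log2 difference, GFP-positive minus GFP-negative, of each tested gene (grey) and member (coloured by role) against its mean log2(signal + 16) over the 4 arrays, with the median of all tested genes dotted. Bnip3, Eno2 and Egln3 lie among the upper genes, at percentiles 68.0, 85.0 and 85.5 of mean log2 signal over all genes. Hif1a, Ddit4, Pgk1 and Gapdh lie at the bright end, within 0.11 of 0 on the probe set kept for each. Mxi1 (0.45) and Aldoa (0.72) are also bright and lie above these.

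Beyond the 38 members, 57 further genes of these pathways were tested. None passed an adjusted p of 0.05 in limma. By unadjusted p, 7 (12.3%, background 10.2%) stood higher and 1 (1.75%, background 4.37%) stood lower in GFP-positive cells, shares near or below those of all tested genes, and the median was 0.22 against 0.075 over all genes. By list, the counts higher and lower were 1 and 0 of 16 further glycolysis genes, 0 and 0 of 5 further pentose phosphate genes, 4 and 0 of 23 further hypoxia genes, and 2 and 1 of 13 regulators.

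Car9, the carbonic anhydrase most often used as a hypoxia marker, was 8.53 and 17.2 in GFP-negative and 76.9 and 46.3 in GFP-positive samples. Both GFP-negative signals lay below the filter's 27.3, so Car9 was tested only through the GFP-positive samples, and its place among the 4 further hypoxia genes that stood higher is no support for that count. Ndrg1, a stress-responsive gene, was 446 and 462 against 737 and 739, a difference of 0.68 (adjusted p = 0.267). The lactate exporter Slc16a3 (MCT4) was 65.3 and 117 against 150 and 180, a difference of 0.80 (adjusted p = 0.325).

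Of the regulators, Rragd, a Rag GTPase that carries nutrient signals to mTORC1, was 228 and 232 in GFP-negative and 670 and 491 in GFP-positive samples, a difference of 1.26 (adjusted p = 0.167). Its adjusted p ranged from 0.0155 with a trended robust variance to 0.451 with 1 array left out, and the mean of its probe sets gave a difference of 0.41. Sesn2, which restrains mTORC1 when leucine is short, was 42.7 and 25.6 against 87.3 and 90.0, a difference of 1.08 (adjusted p = 0.214). Both were higher in GFP-positive samples without overlap. Myc, an activator of glycolytic genes, was 112 and 107 against 54.0 and 47.2, a difference of -0.92 (adjusted p = 0.212), and was lower in both GFP-positive samples. The glucose transporter Slc2a1 (GLUT1), from the list of further hypoxia genes, was 2481 and 2996 against 3482 and 3361. Its difference was 0.33 (-0.22 to 0.87, adjusted p = 0.546).

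Other measures moved with the groups or with single arrays. The 7 regulatory T cell genes summed to 9160 and 8808 in GFP-negative and 16904 and 14598 in GFP-positive samples. The 9 cell cycle genes with a value summed to 6303 and 7677 against 4595 and 5675. In bulk samples, a different share of a cell type and a different RNA level per cell cannot be told apart, and the part of these measures in the differences of the members was not tested.

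Markers of other cells were uneven. The 10 epithelial markers summed to 695 and 789 in GFP-negative and 2787 and 566 in GFP-positive samples. Epcam (72.3 and 42.5 against 246 and 175) and Krt18 (38.2 and 50.6 against 225 and 76.5) were higher in both GFP-positive samples. On GFP-positive replicate 2, Cdh1, Zg16, Krt8, Krt19, Krt20, Muc2 and Car1 lay below both GFP-negative samples, and Fabp2 lay between them. The 16 myeloid markers summed to 487 and 963 against 909 and 3097. All 11 tested ones were higher in GFP-positive cells, 6 (54.5%, background 28.7%) without overlap, with a median difference of 0.81. For 10 of them the sign was the same within both replicate numbers. Csf1r (7.73 and 10.7 against 35.5 and 164) was below the filter's 27.3 in both GFP-negative samples. The sums of the B and plasma cell markers (4087 and 4848 against 6788 and 4600), which Jchain dominated, of the CD8 and NK markers (246 and 217 against 145 and 232) and of the stromal markers (504 and 1086 against 662 and 965) overlapped between the groups, and those of erythroid and platelet markers were 28.9 and 55.6 against 59.5 and 105. None of these markers was at 0, which does not show that such cells were present. Some lay below the filter's 27.3 on all 4 arrays, such as Ncr1 (2.77 and 2.28 against 12.6 and 6.79) and Alas2 (3.85 and 2.16 against 9.11 and 6.87). The epithelial sum was highest on GFP-positive replicate 1 and the myeloid sum on GFP-positive replicate 2, and the part of these cells in the differences of the members was not tested. The ratio of the 3′ to the 5′ Gapdh probe set was 1.30 and 1.47 in GFP-negative and 1.54 and 1.38 in GFP-positive samples, and that of Actb was 2.59 and 4.6 against 3.91 and 4.90, lowest on GFP-negative replicate 1. The control probe set for the dap transcript separated the replicate numbers, at 8.59 and 53.3 on those numbered 1 and 1581 and 1285 on those numbered 2.

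**Figure D4:**
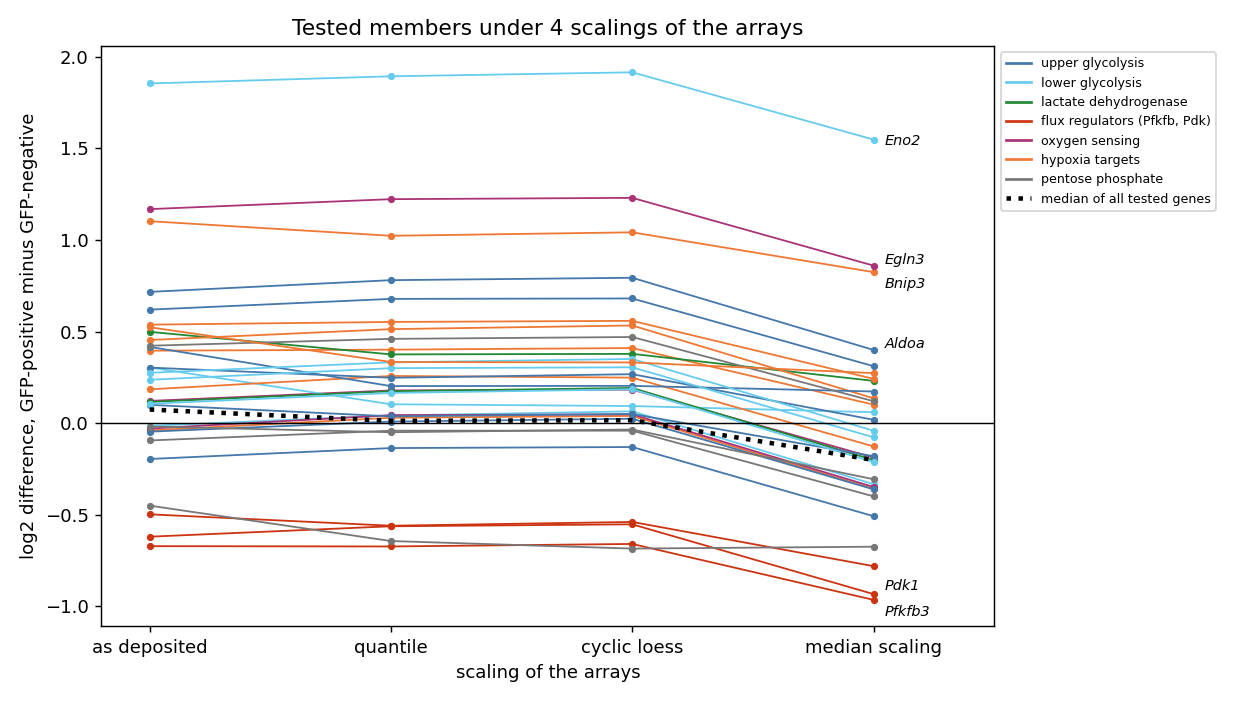
Log2 difference of each tested member with the arrays as deposited and after quantile, cyclic loess and median scaling, coloured by role, with the median of all tested genes as a dotted line. Median scaling lowers the members and the dotted line together, and Eno2, Egln3, Bnip3, Pfkfb3, Pdk1 and Pdk3 keep their sign under all of these scalings.

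The sign of the smaller differences depended on the scaling. Eno2 was 1.89, 1.92 and 1.55 under quantile, cyclic loess and median scaling, Egln3 was 1.22, 1.23 and 0.86, and Bnip3 was 1.02, 1.04 and 0.82. Pfkfb3 was -0.67, -0.66 and -0.96, Pdk1 was -0.56, -0.55 and -0.93, and Pdk3 was -0.56, -0.54 and -0.78. Egln1, Higd1a, Ldha, Pfkl, Pgam1, Pgk1 and Pkm were above 0 as deposited and below 0 under median scaling. Ddit4, Gapdh, Hif1a and Pfkp were below 0 as deposited and above 0 under quantile and cyclic loess scaling. With any single array left out, Eno2, Egln3 and Bnip3 kept differences of at least 1.59, 1.01 and 0.92.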

How the data were processed

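CD4 T cells were measured on 4 Affymetrix arrays, 2 GFP-positive and 2 GFP-negative. The deposited table holds 1 linear intensity per probe set and array. The values show that the authors scaled each array to the same 2% trimmed mean (150). The summary software is not given in the sources used here. Of 45101 probe sets, 34958 carry 1 gene symbol in the platform annotation, 932 several and 9211 none. For each of 18194 genes the single-symbol probe set of highest mean log2(signal + 16) was kept. Genes with a mean under the 40th percentile of probe sets (a signal of 27.3) were left out, which left 12253. Groups were compared with limma 3.58.1 (R 4.3.3, lmFit and eBayes, group as the only term, 2 residual and 3.74 prior degrees of freedom, Benjamini-Hochberg adjustment over all tested genes), tested on simulated data. The small number of arrays limits the precision. Isozyme balances were compared by exact permutation. The members and all gene lists were chosen with earlier results of these data known. Members were named with full values if they passed a threshold of p or fold or were the brightest of their role, and others where a role needed them. Alternatives in pseudocount, filter, scaling, probe set choice, variance model, replicate number and single arrays left out were run. Promoter windows were searched for motifs in RefSeq's GRCm38.p6.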

Additional observations from a re-analysis of the deposited data

How the results depend on the processing

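Of 32 tested members, 14 kept their sign under every alternative run for them and 18 did not. Members called at an adjusted p under 0.05 in limma were 0 as reported, 2 with a pseudocount of 64 (Eno2, 0.00712, and Egln3, 0.0284), 1 with a filter at the 60th percentile (Eno2, 0.0424) and 2 with a trended robust variance (Eno2, 0.00247, and Egln3, 0.0153). They were 0 in every other alternative. These same alternatives raised the calls over all genes from 4 to 174, 50 and 241. Members higher at an unadjusted p under 0.05 were 3 under median scaling and 3 to 8 with 1 array left out, and members lower were 1 with a pseudocount of 1, 1 with no filter and 0 to 2 with 1 array left out. Members past 2-fold upward were 1 under median scaling and 2 to 5 with 1 array left out. The members' median was -0.10 under median scaling.

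The replicate block, which takes the replicate number as a term, gave 0 members called, with adjusted p of 0.110 for Eno2, 0.152 for Egln3 and 0.175 for Bnip3, and took the calls over all genes from 4 to 0. The labels do not say that a number pairs samples, and the deviations of same-numbered arrays correlated at 0.20 over genes with 2 pairs only.

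Signs turned as follows, and the cause was not tested. Under median scaling Egln1 was -0.19, Higd1a -0.13, Ldha -0.20, Pfkl -0.18, Pgam1 -0.041, Pgk1 -0.21 and Pkm -0.077. Under quantile and cyclic loess scaling Ddit4 was 0.030 and 0.040, Gapdh 0.042 and 0.065, Hif1a 0.044 and 0.048, and Pfkp 0.0092 and 0.024. The mean of all probe sets gave 0.085 for Pfkfb3. With 1 array left out, the ranges that cross 0 were -0.090 to 0.011 for Ddit4, -0.056 to 0.30 for Egln1, -0.11 to 0.72 for Eno3, -0.12 to 0.095 for Gapdh, -0.15 to 0.089 for Hif1a, -0.097 to 0.47 for Higd1a, -0.48 to 0.089 for Hk2, -0.034 to 1.03 for Ldhb, -0.34 to 0.55 for Pfkl, -0.18 to 0.086 for Pfkp, -0.14 to 0.99 for Pgd, -0.048 to 0.26 for Pgk1, -0.20 to 0.17 for Taldo1 and -0.24 to 0.047 for Tkt. Among balances they were -0.72 to 0.43 for Pfkp to Pfkl, -0.30 to 0.94 for Pfkm to Pfkl, -0.11 to 0.87 for Ldhb to Ldha and -0.077 to 0.32 for Pdk3 to Pdk1. Dim probe sets limit Aldoc, Pfkfb4 and Pdk2, which stayed under the intensity filter.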
